A study of Mus musculus with 6 samples.

Results

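The 9 genes described here were 3 receptors for fibroblast growth factors (Fgfr1, Fgfr2 and Fgfr3), 3 of their ligands (Fgf2, Fgf7 and Fgf18) and 3 Sprouty genes (Spry1, Spry2 and Spry4). They were taken as a list of names, out of 49939 genes with a place in the annotation. A region belonged to a gene when it overlapped the gene span extended by 50 kb on each side, which gave 85 of the 89410 accessible regions found in the series. Open chromatin had been measured by ATAC-seq, in which the Tn5 transposase cuts and tags DNA that is not wrapped tightly, so that stretches with many cuts appear as peaks. OB Fam20c f/f is an immortalized line of mouse osteoblasts, the cells that make bone, whose Fam20c alleles are flanked by loxP sites. OB Fam20c KO was obtained from it with a lentivirus that carries Cre recombinase, so both groups share the floxed background and differ in the virus as well as in the gene. Fam20c encodes a kinase of the secretory pathway. Each group had 3 libraries of 50000 cells, and whether the KO cells are 1 clone is not given in the sources used here. A difference between a gene's peaks in bulk cells cannot separate fewer cells with an open site from a less open site in each cell.

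Fibroblast growth factors are secreted ligands that bind receptor tyrosine kinases with the help of heparan sulfate. The activated receptors recruit adaptors and switch on the RAS and MAP kinase cascade, whose target genes include the Sprouty genes, and Sprouty proteins in turn dampen the signal. In bone, Fgfr1 and Fgfr2 act in osteoblasts and their precursors, Fgfr3 restrains the growth plate, and Fgf2 and Fgf18 are made by cells of the bone lineage. Fgf7 is known as a ligand of the epithelial form of Fgfr2.

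The 4 promoters printed next, from 250 bases before to 50 bases after the RefSeq start (build GRCm38.p6), were chosen because the peak lists covered them in different ways. The Spry2 promoter (chr14:105896770-105897069, minus strand) is shown since it lay under a peak in every KO list and mostly outside the peaks of the f/f lists. Capitals in it mark the 187 bases that were in no f/f peak and in all 3 KO peaks, and the 113 bases in lower case were reached by the peak of at least 1 f/f list.
Spry2: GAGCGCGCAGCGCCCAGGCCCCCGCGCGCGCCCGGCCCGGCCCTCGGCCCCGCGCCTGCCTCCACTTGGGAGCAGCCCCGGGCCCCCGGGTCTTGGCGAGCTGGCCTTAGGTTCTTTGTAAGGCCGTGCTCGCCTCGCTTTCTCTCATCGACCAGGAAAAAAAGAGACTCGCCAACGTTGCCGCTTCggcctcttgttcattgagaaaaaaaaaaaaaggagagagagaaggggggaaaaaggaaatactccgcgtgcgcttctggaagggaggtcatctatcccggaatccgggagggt
The Spry1 promoter (chr3:37639697-37639996, plus strand) and the first of the 2 listed Fgfr3 promoters (chr5:33721474-33721773, plus strand) are shown as starts that carried a peak in every list, with motif matches in capitals.
Spry1: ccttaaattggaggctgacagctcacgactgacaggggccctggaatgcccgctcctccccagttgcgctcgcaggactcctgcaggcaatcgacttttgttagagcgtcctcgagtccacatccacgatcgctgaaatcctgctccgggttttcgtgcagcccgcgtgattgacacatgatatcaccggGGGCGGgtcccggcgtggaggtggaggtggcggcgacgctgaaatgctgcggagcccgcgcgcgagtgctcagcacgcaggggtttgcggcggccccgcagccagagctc
Fgfr3: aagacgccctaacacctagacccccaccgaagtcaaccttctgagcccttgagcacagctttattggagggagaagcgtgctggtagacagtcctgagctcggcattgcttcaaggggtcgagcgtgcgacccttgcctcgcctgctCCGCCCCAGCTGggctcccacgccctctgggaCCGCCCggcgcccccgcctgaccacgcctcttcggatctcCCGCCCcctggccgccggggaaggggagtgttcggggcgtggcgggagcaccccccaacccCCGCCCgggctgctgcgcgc
The Fgfr2 promoter (chr7:130266759-130267058, minus strand) is shown because no peak of any list reached into it.
Fgfr2: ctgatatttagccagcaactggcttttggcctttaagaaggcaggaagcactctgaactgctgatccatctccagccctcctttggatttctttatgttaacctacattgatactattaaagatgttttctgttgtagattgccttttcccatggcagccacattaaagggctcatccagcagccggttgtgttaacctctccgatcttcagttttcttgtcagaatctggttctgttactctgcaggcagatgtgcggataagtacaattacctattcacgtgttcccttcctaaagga

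The capitals in Spry1 mark 1 match to GGGCGG, the core of a GC box, and those in Fgfr3 mark 4 matches to GGGCGG on either strand and 1 match to CAGCTG, an E-box, that adjoins 1 of them. GGGCGG was present in 35.7% and CAGCTG in 16.3% of the 32851 promoters of the same length. The Fgfr2 promoter had a GC content of 43.7% and held none of the motifs searched on both strands, which were the GC box, the E-box, the TATA box (TATAAA), the AP-1 site (TGACTCA, which reads TGAGTCA on the other strand), the ETS core (CCGGAA), the RUNX core (TGTGGT) and the cAMP response element (TGACGTCA). Its GC content stood at percentile 18.2 of all promoters, whose median was 52.7%. The other listed promoters were those of Fgf7 with 45.7% GC, Fgf2 with 62.7%, Fgf18 with 78.7% and the second one of Fgfr3 with 73.0%. Spry2 had 62.7% GC and 1 match to CCGGAA, an ETS core that 14.9% of all promoters held, and Spry1 had 64.3% GC. These matches describe letters in the window and nothing about binding.

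The lists held 64033, 62781 and 74797 peaks in OB Fam20c f/f and 64141, 64582 and 32958 in OB Fam20c KO, so KO replicate 3 had the shortest list of the 6. Of 8 osteoblast markers, 6 had a peak within 3 kb in all lists, among them Runx2, Sp7 and Col1a1, whereas Bglap and Ibsp, genes of mature osteoblasts, had none in any list. Of the markers of other cell types, all 3 endothelial and all 3 cartilage genes also had a peak in every list, so a peak at a gene did not mark its cell type here. Of 4 blood cell, 3 fat cell and 3 muscle markers, 4, 3 and 2 had a peak in each list but KO 3, where 1, 1 and 0 had. Of the 2 epithelial markers, Cdh1 had a peak in every list and Epcam had none in any. Fam20c itself (chr5:138755081-138810063) had 2, 1 and 2 regions with a peak in f/f and 2, 1 and 1 in KO, and peaks do not show whether the floxed exons were removed.

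The first comparison asked whether as many regions at the 9 genes were accessible without Fam20c. Of the 85 regions, 61, 55 and 70 had a peak in the f/f libraries (62.0 ± 7.55, SD, n = 3) and 57, 62 and 27 in the KO libraries (48.7 ± 18.9, SD, n = 3). KO 1 and KO 2 lay among the f/f libraries, and KO 3 lay far below all others. The difference of -13.3 regions gave p = 0.5 in a two-sided exact permutation test, in which 3 libraries against 3 cannot go below 0.1, and it was -2.5 without KO 3. The libraries had peaks in 71.8%, 64.7% and 82.4% of these regions in f/f and in 67.1%, 72.9% and 31.8% in KO, against 69.0%, 68.8%, 82.7%, 69.6%, 70.9% and 35.8% of all regions in the same order. The share at the FGF genes thus followed the length of each list.

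Of the 85 regions, 27 (31.8%) had a peak in all 6 lists, as did 33.4% of all regions, and 19 (22.4%) had a peak in all but KO 3, against 19.2%. Another 19 (22.4%, against 19.8% of all regions) were seen in 1 list alone, of which 10 were in f/f 3, the longest list, and 5 in KO 2. The regions inside the 9 gene spans numbered 37, and 48 lay outside, 4 of which held the start of another gene among the 32851 listed promoters. Starts missing from that list, which has none for Fgfr1 or Spry4, were not counted. Regions accessible in all f/f and no KO libraries numbered 2 (2.35%), where 3.75% of all regions had this pattern. None was accessible in all KO and no f/f libraries, a pattern that 0.179% of all regions had. In KO 1 and KO 2 alone, 1 region had a peak (1.18%, against 2.72% of all regions).

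**Figure D1:**
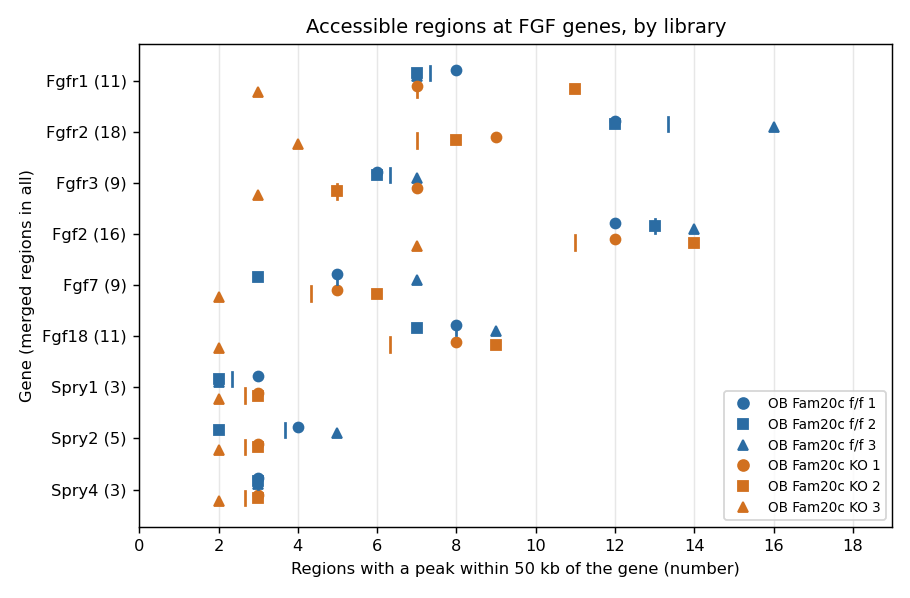
The x axis gives the number of merged regions with a peak within 50 kb of each gene, and the y axis the gene with its number of regions in all. Each point is 1 library (blue for f/f, orange for KO) and the vertical bars are group means of 3 libraries. At Fgfr2 the KO libraries (4 to 9 regions) all sit below the f/f libraries (12 to 16), and KO 3 is the lowest KO library or level with the lowest at every gene.

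Among the receptors, Fgfr2 was the gene where the groups separated. Of its 18 regions, 12, 12 and 16 had a peak in f/f and 9, 8 and 4 in KO, a difference of -6.33 (13.3 ± 2.31 against 7 ± 2.65, SD, n = 3 each). The exact permutation p was 0.1, the smallest that this design allows. The same pattern, every KO library below every f/f library, was seen in 12.8% of 18956 protein-coding genes with a region within 50 kb, and in 1 of these 9 genes. It remained when KO 3 was left out (-4.83 with KO 1 and KO 2), as in 12.9% of the protein-coding genes. In the rest of the 1 Mb on either side of Fgfr2, 75, 67 and 80 regions had a peak in f/f and 72, 78 and 34 in KO, so KO 1 and KO 2 were not low there. When each list was cut to its 32958 strongest peaks, the counts at Fgfr2 became 3, 3 and 3 in f/f and 3, 3 and 4 in KO, and the separation was gone. The regions without a peak in any KO list ranked low in f/f, from percentile 1.26 to 29.3, whereas region 6, which KO 2 and KO 3 lacked, stood at 42.4, 31.2 and 52.6 in the f/f lists. None of the 9 genes had KO 1 and KO 2 above all f/f libraries, a pattern seen in 4.73% of the protein-coding genes.

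**Figure D2:**
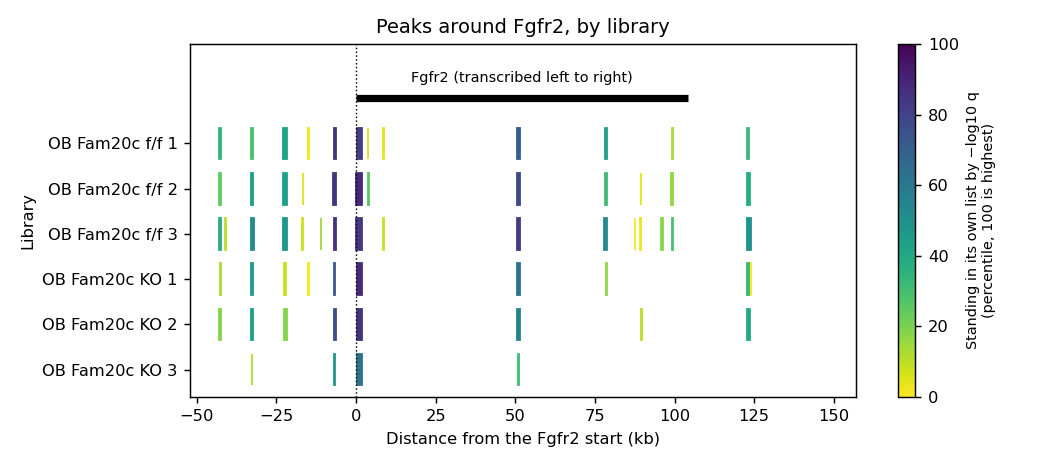
The x axis gives the distance from the Fgfr2 start in kb along the direction of transcription, each row is 1 library, each bar is a peak drawn to scale with a thin outline, and the colour is its standing by −log10 q in its own list. The peaks next to the start and 51.1 kb downstream are in all 6 rows, and the f/f rows hold further pale peaks, inside the gene and upstream, that are absent from most KO rows.

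Fgfr1, the other receptor of the osteoblast lineage, had 8, 7 and 7 of its 11 regions in f/f and 7, 11 and 3 in KO, and these ranges overlapped. Fgfr3 had 6, 6 and 7 of 9 regions in f/f and 7, 5 and 3 in KO, again with overlap. At the ligands the groups overlapped too. Fgf2 had 12, 13 and 14 of 16 regions in f/f and 12, 14 and 7 in KO, Fgf7 had 5, 3 and 7 of 9 against 5, 6 and 2, and Fgf18 had 8, 7 and 9 of 11 against 8, 9 and 2. With lists of equal length, Fgf18 showed 4, 5 and 5 regions in f/f and 3, 2 and 2 in KO, a separation that 6.53% of 17894 protein-coding genes had under that setting. The Sprouty genes had few regions. Spry1 had 3, 2 and 2 of 3 in f/f and 3, 3 and 2 in KO, Spry2 had 4, 2 and 5 of 5 against 3, 3 and 2, and Spry4 had 3 in each f/f library and 3, 3 and 2 in KO.

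The 2 regions found in f/f alone lay at Fgfr2 and Fgf18. The Fgfr2 region (chr7:130167293-130167826, mm10, 99.2 kb downstream of the start and inside the gene) had a −log10 q of 5.38, 6.18 and 13.1, which placed it at percentiles 12.8, 16.5 and 29.3 of the f/f lists, where 100 is the strongest peak. The Fgf18 region (chr11:33097799-33098891, 18079 bp beyond the gene's end) had a −log10 q of 5.38, 7.86 and 25.7, at percentiles 12.8, 22.7 and 45.6. Both were thus in the lower part of their lists. Both remained f/f-only when weaker peaks, under a −log10 q of 5, were dropped, and none of the 6 lists kept a peak there when cut to 32958 peaks. The region seen in KO 1 and KO 2 alone was inside Fgf2 (chr3:37397606-37397927), at percentiles 2.82 and 16.0 of those lists.

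A peak that is present in all lists can still change its rank. For regions shared by all 6 lists, a library's standing was the percentile of the region's −log10 q among the 29849 such regions in the same list. limma was fitted to the normal scores of these ranks, and a region was called at a Benjamini-Hochberg adjusted p under 0.05 over all 29849. Of the 27 regions of the FGF genes tested, 4 stood lower in KO (14.8%, against 10.3% of all regions tested) and 3 stood higher (11.1%, against 12.2%). These shares are near the background. On ranks of the fold over local background, the other value of the peak caller, none of the 27 was called by limma, while 1.32% of all regions were lower and 1.49% higher. On that scale 11 of the 27 had an unadjusted p under 0.05 by limma, against 15 on the −log10 q scale. How many of all regions did was not counted, so these numbers do not set the FGF genes apart. Without KO 3, 5 of 46 member regions stood lower and 3 higher by −log10 q, where 7.86% and 8.01% of all regions did.

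**Figure D3:**
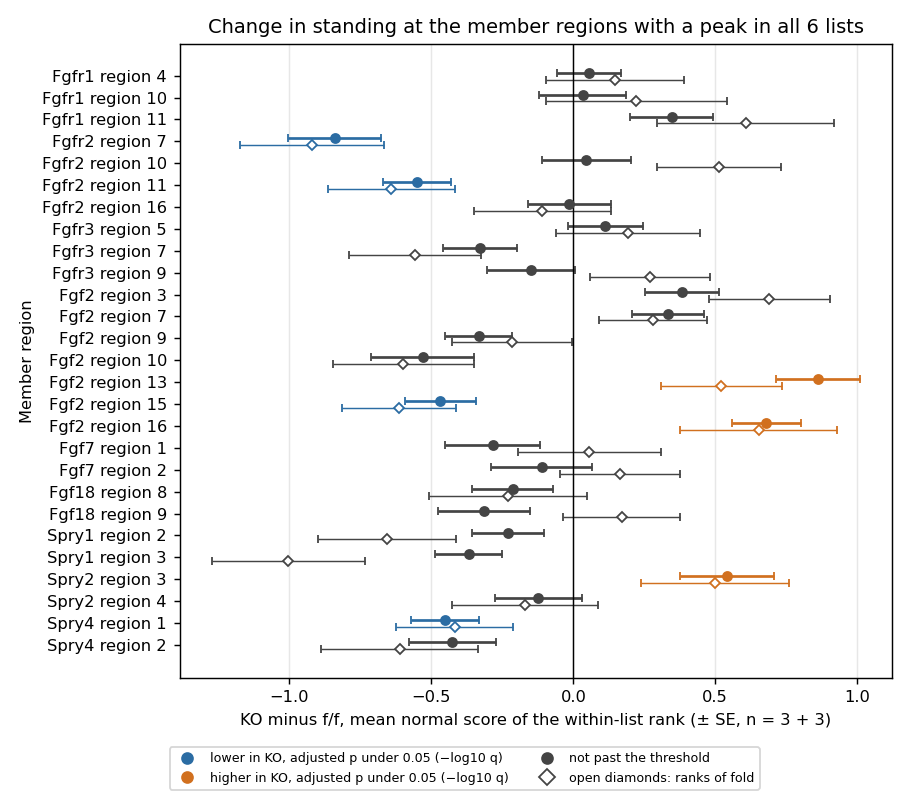
For each of the 27 shared regions, numbered along the chromosome within each gene (y axis), the x axis gives KO minus f/f in the normal score of the within-list rank with its SE (n = 3 and 3). Filled circles use −log10 q and open diamonds fold, and colour marks adjusted p under 0.05 on the −log10 q scale, 4 lower and 3 higher. Filled and open symbols of the 7 coloured regions lie on the same side of 0.

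At Fgfr2, 2 regions stood lower in KO with all 6 libraries. The first was 51.1 kb downstream of the start, inside the gene (region 7, chr7:130215263-130216228). Its −log10 q was 51.7, 78.1 and 138 in f/f and 47.6, 44.8 and 8.44 in KO. Its standing was 40.4, 55.1 and 58.0 in f/f and 23.7, 14.4 and 25.5 in KO, so that every KO library was below every f/f library by this measure. The difference in normal score was -0.84 ± 0.16 (SE, limma adjusted p = 0.00696), or -29.9 percentile points. The call held with any 1 library left out (adjusted p from 0.0098 to 0.0374) and missed the threshold on ranks of fold (adjusted p = 0.0798).

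The other was upstream of Fgfr2, 6319 bp from the gene's edge (region 11, chr7:130273127-130274025), within the span of the predicted gene Gm33555. Its standing was 66.9, 69.6 and 63.2 in f/f and 42.5, 50.8 and 42.2 in KO, again without overlap. The difference was -0.55 ± 0.12 (SE, limma adjusted p = 0.0123), and the adjusted p was 0.0504 without f/f 2, 0.0612 without KO 3 and 0.141 on ranks of fold. The region next to the Fgfr2 start (region 10, chr7:130264941-130266744) stood among the strongest of the locus in every list, at 61.4, 74.8 and 60.3 in f/f and 74.1, 68.5 and 59.1 in KO, which overlapped. Its summits lay 458 to 557 bp inside the gene, past the end of the promoter window printed above. The 2 regions that stood lower with all 6 libraries were therefore beside a start region whose difference did not pass the test (0.05 ± 0.16, SE, limma adjusted p = 0.858). Without KO 3, where regions that KO 3 lacks were tested too, limma also called regions 15 and 18 lower, both upstream of Fgfr2. Region 15 differed by -1.19 ± 0.18 (SE, limma adjusted p = 0.0115, and 0.00483 on ranks of fold). Region 18 differed by -0.64 ± 0.16 (SE, limma adjusted p = 0.0473, and 0.069 on ranks of fold).

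Of the shared regions of the other receptors, none was called with all 6 libraries. Without KO 3, where regions that KO 3 lacks were tested too, limma called 2 regions lower at Fgfr1. They were region 9, in the span of Letm2 (-1.24 ± 0.18, SE, adjusted p = 0.0107, and 0.00254 on ranks of fold), and region 6, inside the gene (-0.53 ± 0.13, SE, adjusted p = 0.0378, and 0.0637 on ranks of fold). In the whole lists, region 9 stood at 40.8, 34.4 and 41.9 in f/f and at 6.29 and 13.9 in KO 1 and KO 2. The region over the Fgfr3 start (region 5) stood at 74.7, 80.5 and 82.1 in f/f and at 77.6, 82.8 and 85.9 in KO, and its percentile in the whole list was 87.2 or more in every library. The region over the end of the Fgfr1 span with the lower coordinate (region 4, chr8:25518614-25520224) stood at 61.2, 57.2 and 56.0 in f/f and at 59.2, 59.0 and 62.6 in KO. The strongest regions of these genes' windows belonged to neighbours. At Fgfr3 it held the start of Letm1 (94.3 to 98.1 over the 6 libraries). At Fgfr1, a region in the span of Nsd3 and one in the span of Letm2 were level on the percentile in the whole list (mean of 81.6 for each), with standings among the shared regions of 49.6 to 77.4 and 54.9 to 72.2.

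Among the ligands, the calls with all 6 libraries were at Fgf2. Near the 3′ part of the gene, 50.6 kb from its start (region 13, chr3:37398751-37399741), the standing was 0.30, 0.101 and 0.514 in f/f and 2.51, 2.80 and 2.54 in KO. The region was thus among the weakest shared regions of every library and less weak in KO, by 0.86 ± 0.15 in normal score (SE, limma adjusted p = 0.00409) and by 2.31 percentile points. It held with any 1 library left out (adjusted p from 0.00973 to 0.0282), but on percent ranks the difference was 2.31 ± 1.92 points (SE, limma adjusted p = 0.436), and on ranks of fold the adjusted p was 0.198. The second region that stood higher (region 16, chr3:37419003-37421051) held the starts of Nudt6 and Spata5, beyond the end of Fgf2, with 77.7, 82.2 and 79.3 in f/f and 91.5, 93.8 and 94.9 in KO (0.68 ± 0.12, SE, limma adjusted p = 0.00499). It was the strongest region of the Fgf2 window. A region in Nudt6 (region 15, chr3:37414507-37414874) stood lower in KO, with 20.9, 20.01 and 13.3 in f/f and 7.12, 8.96 and 8.72 in KO (-0.47 ± 0.13, SE, limma adjusted p = 0.028). The call was lost in 5 of 6 fits with 1 library left out (adjusted p from 0.0678 to 0.207), and held without f/f 3 alone. Nudt6 is the gene on the opposite strand next to Fgf2. Without KO 3, limma also called Fgf18 region 7 higher, inside Fgf18 (0.49 ± 0.12, SE, adjusted p = 0.0425, and 0.182 on ranks of fold). The other Fgf18 regions tested without KO 3 had negative differences by −log10 q, none of them called. Of these, region 10, upstream of Fgf18, was called lower on ranks of fold (-0.92 ± 0.24, SE, limma adjusted p = 0.0241, and 0.0576 by −log10 q).

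The start regions of the ligands did not pass the test. The Fgf2 start stood at 11.8, 12.6 and 11.1 in f/f and at 20.6, 14.8 and 24.7 in KO, so the groups did not overlap, with a difference of 0.33 ± 0.13 (SE, limma adjusted p = 0.0913). Fgf7 stood at 37.2, 37.3 and 24.9 in f/f and 38.5, 32.0 and 18.4 in KO at its start, its strongest region. The Fgf18 start was stronger than both, with 72.1, 83.3 and 79.6 in f/f and 70.6, 67.4 and 77.2 in KO. The strongest region of the Fgf18 window lay in the span of Npm1, at 87.2 to 96.7. In the Fgf18 start region the summit of the strongest peak, relative to the start, was at -1121, -926 and -926 bp in f/f and at -503, -503 and -659 bp in KO. Summits of the 2 groups did not overlap in 13.2% of all shared regions and in 4 of the 27 here, so the shift at Fgf18 is given as a description, chosen after its values were seen. The others were Fgfr1 region 11 and Fgf2 regions 9 and 16.

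**Figure D4:**
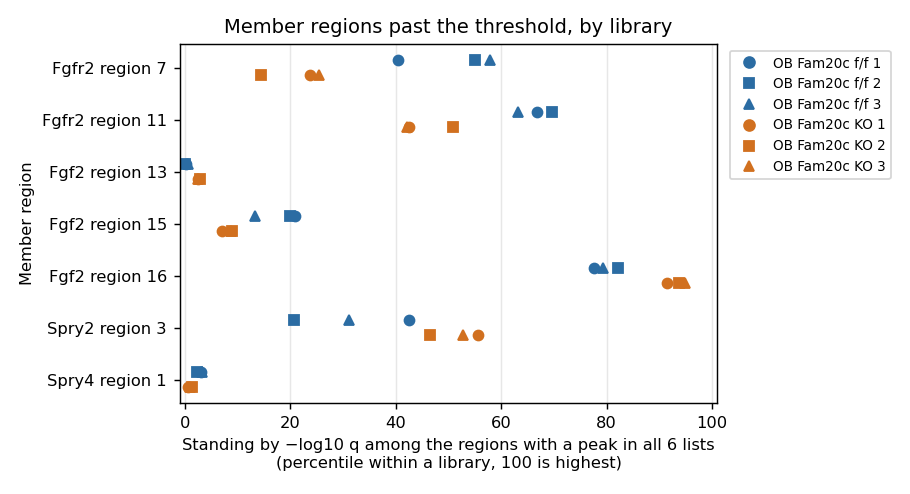
The x axis gives the standing by −log10 q within each library (percentile over the 29849 shared regions), and the y axis the 7 member regions past the threshold. Each point is 1 library, blue for f/f and orange for KO. The 3 points of each group lie apart from those of the other in each row, with Fgf2 region 13 and Spry4 region 1 both at 3.27 or less in every library. The rows were picked by limma on these same ranks, so the separation adds nothing to the calls.

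Of the Sprouty genes, Spry2 had a start region that stood higher in KO (region 3, chr14:105895904-105898018). Its −log10 q was 54.4, 29.6 and 73.9 in f/f and 111, 113 and 19.4 in KO. Its standing was 42.5, 20.7 and 31.1 in f/f and 55.7, 46.5 and 52.8 in KO, without overlap. The difference was 0.54 ± 0.17 (SE, limma adjusted p = 0.0449), or 20.2 percentile points, and the adjusted p was 0.296 on ranks of fold and 0.0507 on percent ranks. The call held in 1 of 6 fits with 1 library left out (without f/f 1), and in the others the adjusted p was 0.0681 to 0.139. The Spry1 start region (chr3:37639584-37641200) stood at 58.8, 69.9 and 67.5 in f/f and at 59.8, 52.9 and 57.5 in KO, which overlapped. The distal region of Spry4 (region 1, chr18:38542898-38543440) stood lower in KO, at 3.10, 2.35 and 3.27 in f/f against 0.677, 1.27 and 0.950 (-0.45 ± 0.12, SE, limma adjusted p = 0.0254), and the call held in 2 of 6 fits with 1 library left out, with an adjusted p of up to 0.541, without KO 3, in the others. On percent ranks its adjusted p was 0.52. The region over the gene end of Spry4, its strongest, stood at 64.7, 57.7 and 58.7 in f/f and at 51.0, 48.4 and 31.7 in KO (adjusted p = 0.0741, limma).

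The peaks at the starts of Spry1 and Spry2 also differed in shape. At Spry2, each f/f list had 2 separate peaks on either side of the promoter, an upstream one of 360, 403 and 382 bp and one of 536, 875 and 845 bp that began near or after the start. Each KO list had 1 peak of 2017, 2101 and 1875 bp that ran through both places and over the promoter. Of the 300 bases of the Spry2 promoter, 0, 113 and 38 were under a peak in f/f and 300 of 300 in each KO list. More promoter bases under peaks in every KO than in every f/f library were found at 1.94% of 14533 promoters with a peak in any list, and at 1 of the 8 promoters listed for these genes.

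At Spry1, each f/f list had a peak of 1030, 1035 and 1059 bp over the start and a second one of 304, 271 and 308 bp whose summit lay 1005 to 1026 bp downstream of it. Each KO list had 1 peak, of 1466, 1413 and 1191 bp, that covered the start and ran into the place of the second f/f peak. More peaks in every f/f than in every KO library were found in 2 of the 27 member regions, these 2, and in 0.707% of all shared regions. The same 2 remained without KO 3, where the share was 0.592%. The reverse was found in none of the 27 and in 0.111% of all. This comparison was chosen after its values were seen, and with lists of equal length each of the 2 regions had 1 peak in every library.

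**Figure D5:**
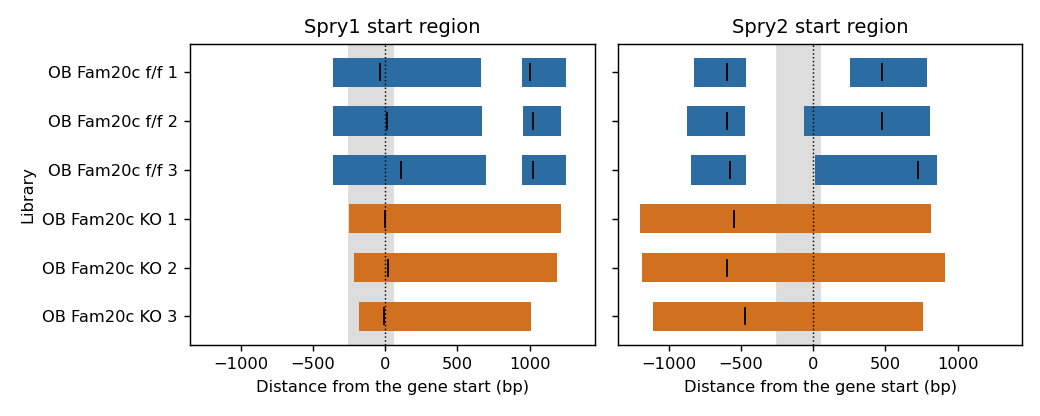
Bars are the peaks of each library (y axis) by distance from the gene start in bp (x axis, positive downstream), black ticks are their summits and the grey band is the promoter window from 250 before to 50 after the start. The f/f libraries (blue) have 2 peaks at each start and the KO libraries (orange) have 1, which at Spry2 spans the grey band.

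The wider pathway was described with 59 other genes of FGF signalling, of which 57 had a region within 50 kb, 611 regions in all. Regions in all f/f and no KO libraries numbered 25 (4.09%) at 18 genes, and regions in all KO and no f/f libraries numbered 2, at 2 genes. Of the 219 shared regions, 23 (10.5%) stood lower and 27 (12.3%) higher in KO by limma, at 15 and 21 genes. Every KO library had fewer regions than every f/f library at 9 of the 57 genes (15.8%). The shares of regions in f/f only, lower and higher were close to those of the whole series (3.75%, 10.3% and 12.2%). The 15.8% stood against 12.8% of the protein-coding genes. The 2 regions in KO only, of 611, stood against 0.179% of all regions. None of these differences in share was tested.

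By group, the 15 other secreted ligands had 2 regions lower (5.41%) and 5 higher (13.5%) of 37, and the 8 other feedback inhibitors, which include the Spred and Dusp genes, had 2 lower (7.14%) and 4 higher (14.3%) of 28. The 15 adaptors and transducers had 6 lower (8.22%) and 9 higher (12.3%) of 73. The 4 other receptors and coreceptors had 2 lower and 2 higher (14.3% each) of 14, and the 7 carriers had 2 lower (6.67%) and 3 higher (10.0%) of 30. Shares of regions lower were furthest above the 10.3% of all regions in the 4 intracellular homologues, with 2 of 6 (33.3%) and 0 higher, and in the 6 ETS and immediate early targets, with 7 of 31 (22.6%) and 4 higher (12.9%). These differences in share were not tested.

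Fgf12, an intracellular homologue of the ligands, had the most regions of this list with a pattern of 1 group. Of its 25 regions, 11, 15 and 22 had a peak in f/f and 2, 2 and 0 in KO, and 6 were in all f/f and no KO libraries, a pattern of 3.75% of all regions. These 6 lay between 28338089 and 28564607 on chromosome 16. Regions farther from Fgf12 were not counted as they were for Fgfr2. Whether the pattern is particular to Fgf12 or shared by that part of the chromosome was not tested. Etv4, an ETS factor downstream of the receptors, had 3 shared regions lower and 1 higher (10.3% and 12.2% of all shared regions were), and 0 lower and 1 higher without KO 3. Grb2, the adaptor that links receptors to RAS, also had 3 lower and 1 higher, and 2 lower without KO 3. Fgfr4, the fourth receptor, had 2 lower and 1 higher, with or without KO 3, and 1 region found in all KO and no f/f libraries (chr13:55107715-55108065).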

How the data were processed

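ATAC-seq was performed on 3 libraries of the parental OB Fam20c f/f line and 3 of the OB Fam20c KO line (50000 cells, 30 min of transposition). According to the methods, the authors used Trimmomatic for trimming and BWA for alignment to mm10, and called peaks with MACS2 (version 2.1.2 in the submitters' notes) at a q-value under 0.05. The deposited lists, 1 per library, hold, per peak, an integer display score (not used), the fold over local background as a ratio, and −log10 p and −log10 q. Peaks were merged where they shared 1 bp or more, and gene spans came from RefSeq (GRCm38.p6). The authors' values depend on the depth of their own list, so they were ranked within it. Read depth per library and reads in peaks were not analysed here, and the study's test on read counts was not run. The lists held 32958 to 74797 peaks. A missing peak is one that did not pass the threshold in that list. The paper reports more uniquely mapped reads for KO replicate 3 than for f/f replicate 1. Why the list of KO replicate 3 was shorter was not tested. Nothing says that the libraries came from separate cultures, so p-values measure the spread between these libraries, which may be technical.

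Groups came from the sample labels. Numbers of regions were compared by exact permutation over the 20 assignments of 3 of 6 libraries, and ranks by limma 3.58.1 (R 4.3.3, Benjamini-Hochberg over 29849 regions). Merging and limma were tested on simulated data. The members and lists were chosen with earlier results of these data known. Named regions are those over or nearest to a member's start, the strongest by mean standing, those in 1 group only, in KO 1 and KO 2 only, or past the limma threshold. Of the pathway list, at most 6 genes with the most such regions were to be named, and ties left 4. Peak numbers, promoter coverage and summit positions were added after the values were seen. Promoter sequences are those of RefSeq (GRCm38.p6), with 8 entries for 7 of the 9 genes. The alternatives were an extension of 3 kb, a −log10 q of 5 or more, equal peak numbers, merging at 50% of the shorter peak, at least 2 of 3 libraries, ranks of fold, percent ranks, a replicate block and each library left out. Python 3.11.15, numpy 2.4.6, pandas 2.3.3 and matplotlib 3.10.9 were used.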

Additional observations from a re-analysis of the deposited data

How the results depend on the processing

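The difference in member regions with a peak stayed negative under every alternative run, from -19.8 to -2.5 with 1 library left out (-2.5 without KO 3, against -13.3 with all). It was smallest with equal peak numbers, at -1.67 (26.7 in f/f against 25.0 in KO, exact permutation p = 0.3). Its exact permutation p cannot go below 0.1, so no alternative could have passed 0.05. With a replicate block, its exact sign-flip p was 0.75, where the smallest possible is 0.25. Regions in all f/f and no KO libraries numbered 2, and 1 with an extension of 3 kb, 1 with equal peak numbers, 6 at 2 or more of 3 libraries, and 2 to 4 with 1 library left out (4 without f/f 2). Regions in all KO and no f/f libraries numbered 0, and 1 at 2 or more of 3 libraries and 0 to 1 with 1 library left out (1 without KO 3). The shares of all regions with these patterns under the alternatives were not counted, so the changes in number cannot be set against them. Member regions lower in KO by limma numbered 4, and 0 on ranks of fold, 1 within 3 kb, 2 with the replicate block and 2 to 5 with 1 library left out (2 without f/f 1 or without KO 1). Those higher numbered 3, and 0 on ranks of fold, 1 with percent ranks and 2 to 3 with 1 library left out. Of all 29849 regions, 2692 were lower with the replicate block and 3412 higher with percent ranks. On ranks of fold, 0 member regions were called, and 0 to 4 with 1 library left out (4 without KO 3). Those 4 were 3 lower and 1 higher of 46 member regions. In the same fit, 2508 of all 46989 regions were lower and 2418 higher. Regions with more peaks in every f/f than in every KO library numbered 2, and 0 with equal peak numbers. The cause of these changes was not tested. Libraries with the same number correlated at 0.0486, -0.122 and -0.138 in their deviations from the group means, so the numbers were not taken as pairs. Of 81 per-gene differences recomputed, 79 moved by less than 1 SD.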
